A study of Mus musculus with 16 samples.

Results

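The Gstm cluster on mouse chromosome 3 holds the genes of the mu-class glutathione transferases, among them Gstm1, Gstm2, Gstm3, Gstm4 and Gstm6. Its open chromatin was described here as the merged DNase-seq peaks that overlap a window of 200 kb, chr3:107680000-107880000 in the mm9 build. The window held 31 of the 61240 regions obtained by joining overlapping peaks of all 16 peak lists of the series, and they are numbered 1 to 31 in order of position. The rule took regions by position and used no signal value, but the window itself was chosen with earlier results of these data known.

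DNase signal was called higher with TCPOBOP at 4 of the 19 Gstm regions that could be tested, each at 27 h: at 3 of 13 in females, where 3.71% of all regions tested were called higher, and at 1 of 19 in males, where 1.75% were. In females, region 11 rose 3.06-fold, region 24 rose 2.15-fold and region 23 rose 1.80-fold, and in males region 12 rose 1.89-fold. The calls at regions 12 and 23 ended with any 1 of their 4 pools left out, that at region 24 with any 1 of 3, and that at region 11 held. No Gstm region was called lower in any of the 4 comparisons, where 0.0789% to 2.95% of all regions tested were. At 3 h 0 of 11 in males and 0 of 10 in females were called in either direction, where 0.642% and 1.04% of all were called higher. Region 12 was higher in both TCPOBOP pools than in every vehicle pool with a peak in all 4 comparisons. Another 7 regions, and region 23 as well, had a peak in both TCPOBOP pools and in neither vehicle pool of at least 1 comparison. By comparison these were 4 of 28 Gstm regions in males and 3 of 25 in females at 27 h, and 1 of 22 and 0 of 18 at 3 h. Of all regions with a peak, 2.22%, 6.04%, 4.93% and 4.05% did so, in that order. The share over the 4 comparisons together was not counted. With lists of equal length only regions 10 and 23 of these 8 Gstm regions did so in the same comparison.

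The pools were made from livers of CD-1 (ICR) mice received at 7 weeks of age, with 3 to 5 mice per pool. Males and females were injected with 3 mg/kg TCPOBOP, or with the vehicle, 1% DMSO in corn oil, and livers were taken after 3 h or 27 h. This gave 8 groups of 2 pools: male and female, 3 h and 27 h, TCPOBOP and vehicle. Every combination of sex and time was a separate experiment with its own vehicle pools, so a difference between sexes or times cannot be told apart from one between experiments. Nuclei came from liver tissue. In such material more nuclei with an open site and more cutting per nucleus cannot be told apart, and the liver label was not checked against marker genes, because no mm9 annotation was used here.

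TCPOBOP is a small molecule that activates CAR (the constitutive androstane receptor). This nuclear receptor of hepatocytes binds DNA with the retinoid X receptor and raises transcription of drug-metabolising genes. Mu-class glutathione transferases join glutathione to electrophiles, a conjugation step in which many drugs and reactive by-products are made soluble and ready for export. Gstm1 is an abundant member of the class in mouse liver, and Gstm1, Gstm2 and Gstm3 are among the transcripts known to rise in mouse liver with CAR activators. The genes of the cluster arose by duplication and lie side by side. Reads from stretches that such copies share can be placed at more than 1 copy, and how the authors placed them is not stated, so signal in such stretches is uncertain. In the RefSeq annotation of the GRCm38.p6 assembly their order is Gstm5, Gstm7, Gstm6, Gstm3, Gstm2, Gstm1 and Gstm4. The peak files use mm9, an earlier build, so the regions were not assigned to single genes, and no RNA was measured.

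The sequence before the start of Gstm3, Gstm2 and Gstm1 is shown as the letters of start sites in this cluster, and no open region was linked to any of them. These 3 were printed because the annotated start used is also the boundary of the gene. Each run is the 250 bases before the start, 5′ to 3′ on the minus strand on which all 3 genes are transcribed, from RefSeq in GRCm38.p6, a build whose coordinates cannot be set beside those of the regions. They lie at chr3:107969175-107969424 for Gstm3, chr3:107986421-107986670 for Gstm2 and chr3:108017974-108018223 for Gstm1. Capitals mark matches to the GC box GGCGGG, read as CCCGCC on the other strand, and to the CCAAT box, CCAAT or ATTGG, 2 elements of many promoters.
Gstm3: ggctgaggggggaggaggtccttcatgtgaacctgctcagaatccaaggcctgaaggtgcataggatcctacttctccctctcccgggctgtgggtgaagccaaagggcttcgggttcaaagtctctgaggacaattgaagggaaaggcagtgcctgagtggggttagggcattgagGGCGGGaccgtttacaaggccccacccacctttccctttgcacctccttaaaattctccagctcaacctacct
Gstm2: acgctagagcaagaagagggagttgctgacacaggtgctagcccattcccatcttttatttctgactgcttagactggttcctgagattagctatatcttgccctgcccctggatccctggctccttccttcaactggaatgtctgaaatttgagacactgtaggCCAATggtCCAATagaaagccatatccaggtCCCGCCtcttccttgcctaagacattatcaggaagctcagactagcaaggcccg
Gstm1: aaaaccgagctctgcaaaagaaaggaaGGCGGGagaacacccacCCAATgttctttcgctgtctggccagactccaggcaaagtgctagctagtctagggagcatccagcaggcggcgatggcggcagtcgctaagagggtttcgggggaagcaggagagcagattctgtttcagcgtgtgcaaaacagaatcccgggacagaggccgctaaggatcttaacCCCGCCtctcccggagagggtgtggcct

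Windows of 250 bases before to 50 after a start were found for 5 of the 5 genes, 9 windows in all, since Gstm6, Gstm1 and Gstm4 have more than 1 annotated start. Both strands of the 250 bases before each start were searched, here and in all windows, and the 50 bases after it were not. The GC box was present in 8 of the 9 windows and in 32.5% of 32851 mouse promoter windows, and the CCAAT box was present in 8 of the 9 and in 33.8% of all windows. The nuclear receptor half-site AGGTCA was found in 0 of the 9 windows and in 14.02% of all windows. The direct repeat of that half-site with 4 bases between was therefore also found in 0 of the 9, and in 0.0152% of all. The core of the antioxidant response element, TGACNNNGC, was found in 0 of the 9 and in 10.2% of all. Outside the 9, it was found in the cluster's neighbours Gstm5 (1 of 1 window) and Gstm7 (1 of 2). The duplicated genes share sequence, so the 9 windows are not independent. A match or its absence describes only the letters of the 250 bases searched in them.

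The 16 libraries held 15679689 to 43618254 tags and their lists 29216 to 46281 peaks. The signal of a region in a pool was the pileup, the number of extended tags over the highest summit, per 1000000 tags of the library and centred, and all signal values below are in this unit. Centring scaled each library so that the regions with a peak in all 16 lists had the same median log2 signal. The second male 27 h TCPOBOP pool stood apart in this step, with a log2 shift of 0.43 removed, against −0.21 to 0.13 in the other 15 pools. Results at male 27 h are therefore also given without it. The second female 27 h vehicle pool was shallow, with 18044366 tags against 25065722 to 30340709 in the other 3 pools of its comparison.

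The 31 Gstm regions were 200 to 1920 bp wide, with a median of 660 bp, and covered 21403 bp of the window. A peak was called in all 16 lists at 9 of them (29.0%, against 30.1% of all regions), in some lists at 20 and in a single list at 2. Summed over the 8 lists of a time, Gstm regions held a peak 112 times at 3 h and 173 times at 27 h, a ratio of 1.54, while all regions of the series held one 243063 and 304714 times, a ratio of 1.25. The 27 h libraries were also the deeper ones, 18044366 to 43618254 tags against 15679689 to 25383943 at 3 h, and the part of depth in this count was not tested. Among male 27 h pools the number of Gstm regions with a peak was 21 in each vehicle pool and 25 and 27 in the TCPOBOP pools, against 40496 and 42522 and then 36957 and 44280 of all regions. Among female 27 h pools it was 18 and 15 in the vehicle pools and 23 in each TCPOBOP pool, against 35494 and 29992 and then 37269 and 37704 of all regions. At 3 h it was 16 and 15 with vehicle against 17 and 14 with TCPOBOP in males, and 10 and 13 against 14 and 13 in females. The same counts over all regions were 29217 and 27534 against 36879 and 30794 in males, and 27859 and 28674 against 30998 and 31108 in females.

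Over all 16 lists, 7 of the 31 regions had peaks in TCPOBOP lists alone and 0 in vehicle lists alone, against 15.2% and 9.18% of all 61240 regions. The 7 were regions 8, 13, 14, 17, 21, 22 and 27, each with a peak in 1 to 4 lists. The grid of signal by pool shows these as columns that are grey in every vehicle row.

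**Figure D1:**
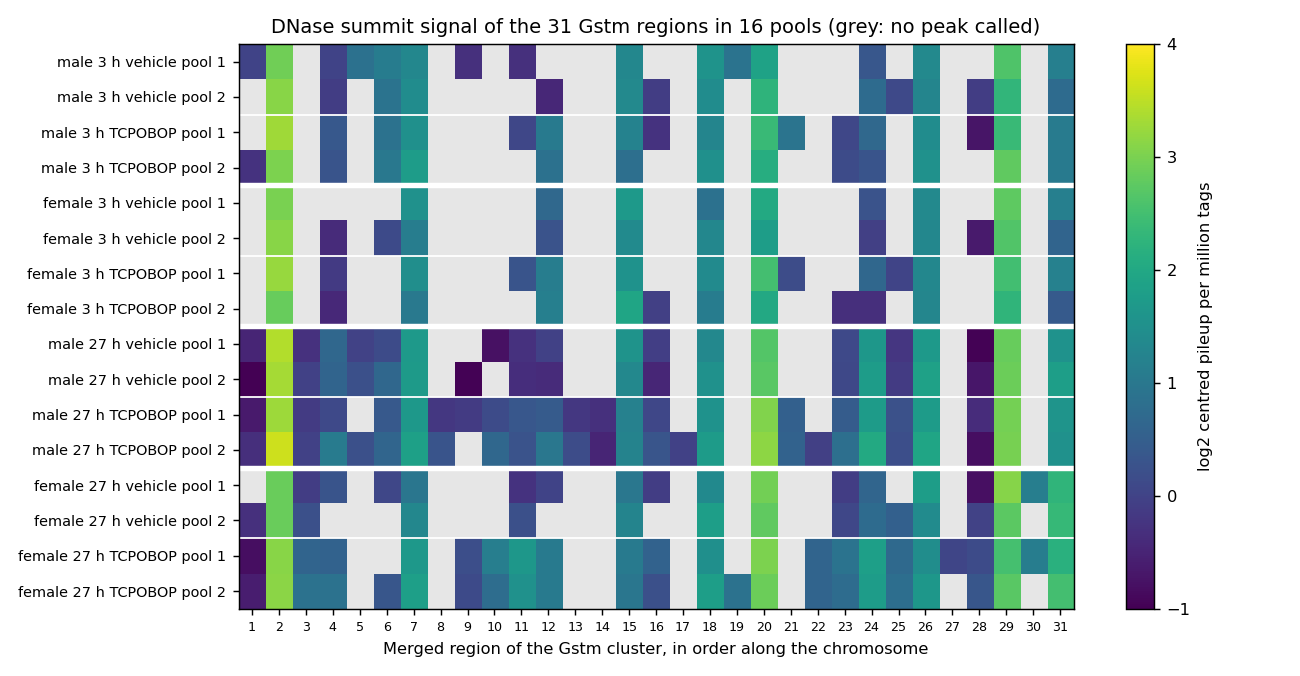
Log2 centred summit pileup per 1000000 tags of the 31 Gstm regions (columns, in order along the chromosome) in the 16 pools (rows, grouped by experiment), with grey where no peak was called. Regions 2, 20 and 29 are the brightest columns, and regions 8, 13 and 14 have a peak in the male 27 h TCPOBOP pools alone.

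The strongest sites of the cluster were regions 2, 29, 20, 26 and 7, each with a peak in all 16 lists. Region 2, chr3:107734355-107735478, had a mean signal of 8.77, above 96.0% of the regions with a peak in all lists, and lay between 7.13 and 12.3 in single pools. Its signal was 7.27 and 7.20 with vehicle and 8.62 and 8.76 with TCPOBOP in females at 27 h, and 10.8 and 10.1 against 9.68 and 12.3 in males at 27 h. At 3 h it was 7.53 and 8.61 against 9.79 and 8.11 in males, and 8.00 and 8.69 against 9.32 and 7.13 in females. Only in females at 27 h did the groups not overlap at this region, and its log2 difference there, 0.26 ± 0.16 (SE, n = 2 pools in each group), had a limma adjusted p of 0.390.

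Region 29, chr3:107870415-107871114, had a mean signal of 6.43. In males it was 7.16 and 7.35 with vehicle and 7.73 and 7.81 with TCPOBOP at 27 h, and 6.12 and 4.91 against 5.26 and 6.89 at 3 h. In females it was 8.53 and 6.68 with vehicle and 5.72 and 6.60 with TCPOBOP at 27 h, and 6.79 and 6.26 against 5.59 and 4.84 at 3 h. The female TCPOBOP pools were thus below the female vehicle pools at both times, while the male TCPOBOP pools were above at 27 h and overlapped at 3 h, and none of these differences passed the test (limma adjusted p 0.352 to 0.948).

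Region 20, chr3:107820332-107821362, had a mean of 5.70. Its signal was 6.36 and 6.62 with vehicle and 8.27 and 8.87 with TCPOBOP in males at 27 h, where the groups did not overlap, a log2 difference of 0.40 ± 0.18 (SE, limma adjusted p = 0.350). It was 7.67 and 6.85 against 8.05 and 7.30 in females at 27 h, 3.70 and 4.77 against 5.22 and 4.33 in males at 3 h, and 4.10 and 3.45 against 5.64 and 4.05 in females at 3 h. Those 3 comparisons overlapped, and every 27 h pool of this region was above every 3 h pool.

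Region 26, chr3:107847476-107848190, varied less, from 2.42 to 3.84 over the 16 pools. Its vehicle and TCPOBOP values were 2.56 and 2.42 against 2.70 and 2.89 in males at 3 h, and 2.56 and 2.49 against 2.50 and 2.45 in females at 3 h. At 27 h they were 3.25 and 3.64 against 3.33 and 3.84 in males, and 3.42 and 2.67 against 2.75 and 3.12 in females. The groups were apart in males at 3 h and overlapped elsewhere, and no difference passed the test (limma adjusted p 0.729 to 0.978).

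The female 27 h comparison asked which sites differed a day after CAR activation in females. Of 13 Gstm regions with a peak in all 4 pools, 3 were called higher and 0 lower, where 3.71% and 2.95% of the 25502 regions tested were called higher and lower. The called regions were 11, 23 and 24, and 10 of the 13 log2 differences were above 0, against 43.5% of all regions. The median log2 difference of the 13 was 0.26, against −0.05 over all regions tested. Both TCPOBOP pools were above both vehicle pools at 7 of the 13, where 20.8% of all regions tested did so. They were below at 1 of the 13, where 27.9% of all regions tested did so. By limma without adjustment 6 of the 13 had p under 0.05, a count with no share over all regions beside it.

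Region 11, chr3:107774805-107775741, had the largest log2 difference among the 19 Gstm regions that could be tested in the 4 comparisons. With absent peaks set at the list's lowest pileup, region 10 in females (2.26) and region 21 in males (2.28) at 27 h had larger ones. Both vehicle values of each were that fill-in, so these 2 are not measured effects to rank against region 11. In females at 27 h the signal of region 11 was 0.828 and 1.16 with vehicle, from pileups of 23 and 20 tags. With TCPOBOP it was 3.13 and 2.89, from 82 and 87 tags. The pools of each treatment lay close together and far from those of the other: the means were 0.995 ± 0.236 and 3.01 ± 0.1699 (SD, n = 2 pools). The log2 difference was 1.62 ± 0.25 (SE, limma adjusted p = 0.000162), and the call held without each of the 4 pools in turn (limma adjusted p 0.000522 to 0.0091). The same region in males at 27 h held 0.818 and 0.788 with vehicle and 1.28 and 1.21 with TCPOBOP, groups that did not overlap but whose log2 difference of 0.63 ± 0.26 did not pass (limma adjusted p = 0.298). At 3 h it had a peak in 1 vehicle pool and 1 TCPOBOP pool of males, at 0.807 and 1.04, and in 1 TCPOBOP pool of females, at 1.22.

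Region 24, chr3:107834406-107835519, was called in all 16 lists. In females at 27 h its signal was 1.55 and 1.68 with vehicle and 3.55 and 3.39 with TCPOBOP, a log2 difference of 1.10 ± 0.26 (SE, n = 2 pools in each group; limma adjusted p = 0.00723). The 2 treatments were well apart, and the call held without the shallow second vehicle pool (limma adjusted p = 0.0315). It was lost without the first vehicle pool (0.0793), the first TCPOBOP pool (0.0708) or the second TCPOBOP pool (0.0529, all limma adjusted p). With vehicle the region was already high in males at 27 h at 3.14 and 3.41, and stood at 3.36 and 4.11 with TCPOBOP, overlapping groups with a log2 difference of 0.18 ± 0.26 (limma adjusted p = 0.926). At 3 h it was 1.28 and 1.68 against 1.62 and 1.22 in males, and 1.21 and 0.958 against 1.60 and 0.799 in females. The female 27 h TCPOBOP pools were therefore at the level of the male 27 h pools of either treatment, and the female 27 h vehicle pools near the 3 h pools.

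Region 23, chr3:107828501-107829862, neighbours region 24. Its female 27 h values were 0.936 and 1.05 with vehicle and 1.87 and 1.69 with TCPOBOP, a log2 difference of 0.85 ± 0.24 (SE, limma adjusted p = 0.0345). The groups did not overlap, but leaving out any 1 of the 4 pools ended the call (limma adjusted p 0.0751 to 0.227), as did setting absent peaks at the list's lowest pileup (0.102). Its male 27 h values were 1.07 and 1.06 with vehicle and 1.38 and 1.78 with TCPOBOP, again with no overlap, a log2 difference of 0.55 ± 0.25 that did not pass (limma adjusted p = 0.386). At 3 h region 23 had no peak in any vehicle pool of either sex, and a peak in both male TCPOBOP pools, at 1.04 and 1.11, and in 1 female TCPOBOP pool, at 0.799.

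Region 7, chr3:107756123-107757055, came nearest to the threshold among the uncalled members in this comparison. It held 1.94 and 2.50 with vehicle and 3.17 and 3.55 with TCPOBOP in females at 27 h, groups that did not overlap, a log2 difference of 0.61 ± 0.20 (SE, limma adjusted p = 0.0695). Male 27 h pools held 3.27 and 3.32 against 3.16 and 3.60. At 3 h it held 2.49 and 2.69 against 2.84 and 3.39 in males, with no overlap, and 2.89 and 2.17 against 2.77 and 2.02 in females.

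**Figure D2:**
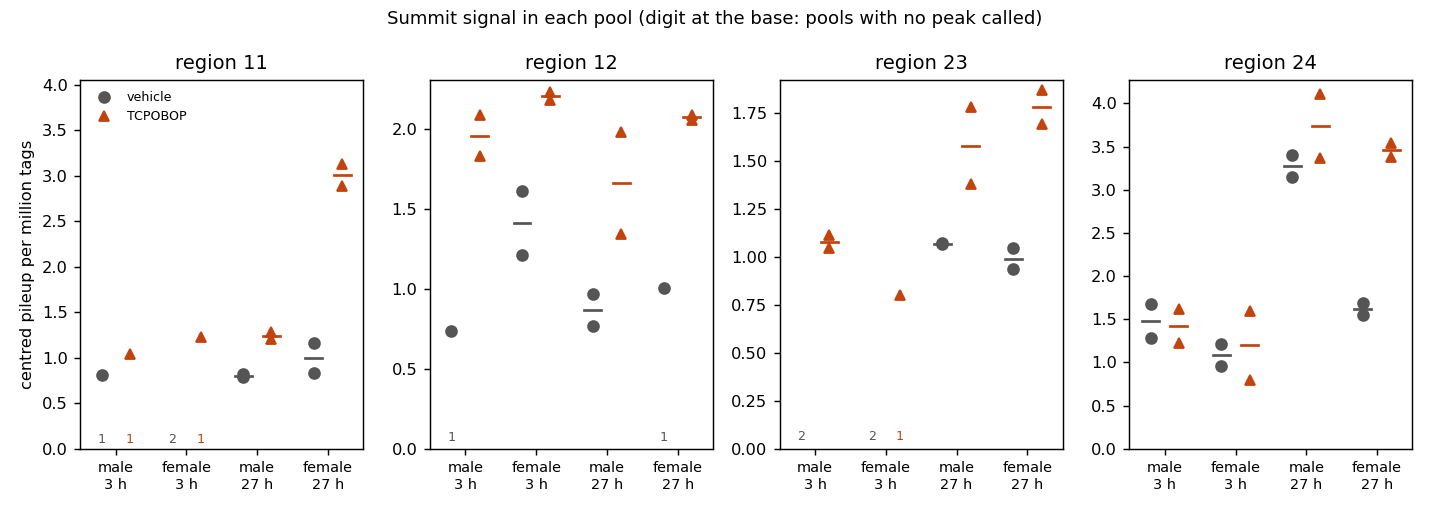
Centred summit pileup per 1000000 tags (vertical axis from 0) of regions 11, 12, 23 and 24 in each pool, by experiment, with circles for vehicle, triangles for TCPOBOP, a short line at the mean of 2 pools and a digit at the base for the number of pools with no peak. Region 11 stands at 3.13 and 2.89 in the female 27 h TCPOBOP pools and at 1.28 or less in every other pool with a peak.

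The male 27 h comparison put the same question to males. Of 19 Gstm regions tested, 1 was called higher, region 12, and 0 lower, where 1.75% and 0.439% of the 31915 regions tested were called higher and lower. The log2 difference was above 0 at 16 of the 19, against 47.8% of all regions tested, with a median of 0.18 against −0.01. Both TCPOBOP pools were above both vehicle pools at 8 of the 19, where 20.4% of all regions did so. They were below at 1 of the 19, where 21.8% of all regions did so. By limma without adjustment 4 of the 19 had p under 0.05, namely regions 11, 12, 20 and 23, again with no share over all regions beside it.

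Region 12, chr3:107777060-107777719, lies next to region 11. Its male 27 h signal was 0.971 and 0.767 with vehicle and 1.35 and 1.98 with TCPOBOP, groups that did not overlap. The log2 difference was 0.92 ± 0.25 (SE, n = 2 pools in each group; limma adjusted p = 0.0469). This call was near the threshold: without the TCPOBOP pool that stood apart the log2 difference was 0.64 (limma adjusted p = 0.577), and without each of the other 3 pools it was 0.75 to 1.201 and also missed (limma adjusted p 0.0631 to 0.413).

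In the other 3 comparisons both TCPOBOP pools of region 12 were again above every vehicle pool with a peak, a pattern for which no share of all regions was counted. In females at 3 h it held 1.61 and 1.21 with vehicle and 2.18 and 2.24 with TCPOBOP, a log2 difference of 0.66 ± 0.25 (SE, limma adjusted p = 0.294). At male 3 h a single vehicle pool had a peak, at 0.740, while the TCPOBOP pools held 2.09 and 1.83. At female 27 h a single vehicle pool had a peak, at 1.01, and the TCPOBOP pools held 2.06 and 2.09. Over the series it had a peak in 8 of 8 TCPOBOP pools and 6 of 8 vehicle pools. Without the male 3 h vehicle pool that had no peak, region 12 could be tested at male 3 h and was called higher (log2 difference 1.39, limma adjusted p = 0.0303). Without the shallow female 27 h vehicle pool, which had no peak, it was called there too (log2 difference 1.04, limma adjusted p = 0.0416). In both fits the lone vehicle pool was assumed to vary like the other groups.

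The 3 h comparisons asked which sites had changed soon after the injection. In males 0 of 11 Gstm regions tested were called, where 0.642% of 22908 regions were called higher and 0.113% lower. In females 0 of 10 were called, where 1.04% of 22825 regions were called higher and 0.0789% lower. By limma without adjustment 0 of the 11 and 1 of the 10 had p under 0.05, the 1 being region 12, with no share over all regions beside these counts. The log2 differences ran from −0.31 to 0.37 in males and from −0.33 to 0.66 in females. In males 7 of 11 were above 0, against 45.7% of all regions tested, with a median of 0.13 against −0.03. In females 5 of 10 were above 0, against 45.3%, with a median of 0.02 against −0.03. At this depth 12 of the 31 regions could not be tested in any of the 4 comparisons, since each lacked a peak in at least 1 pool of every comparison. The tests thus cover the members with a peak in 8 or more lists, and the others had one in 5 or fewer. Mean signal did not separate them, with 0.704 at tested region 1 and 2.18 at untested region 30.

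**Figure D3:**
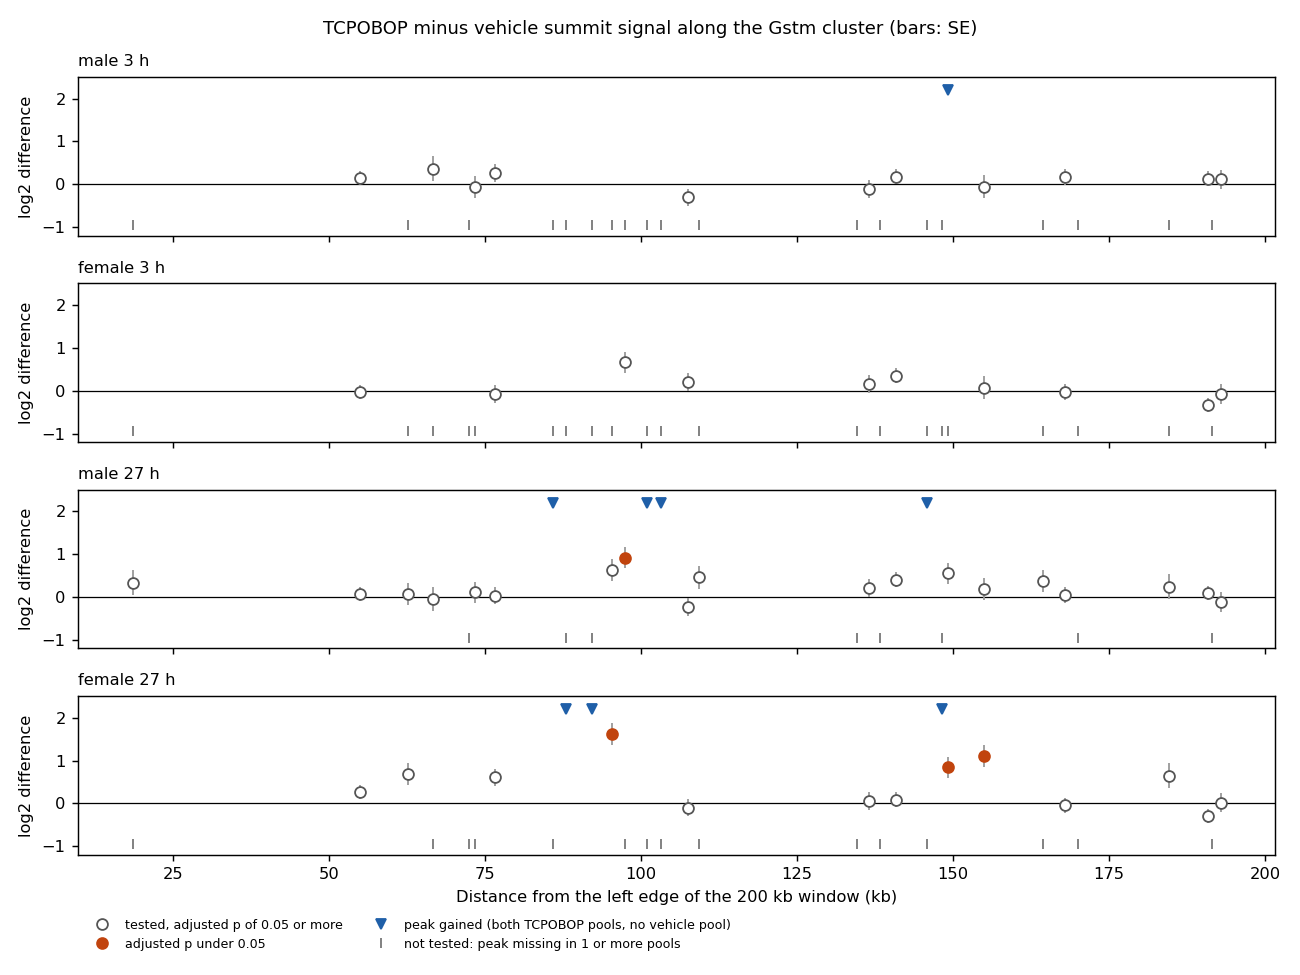
Log2 difference in summit signal, TCPOBOP minus vehicle, with its SE, against distance from the left edge of the window, by experiment. Filled circles mark regions 12 in males and 11, 23 and 24 in females at 27 h, triangles mark gained peaks, and ticks mark regions with a peak missing in at least 1 pool.

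Gained peaks, present in both TCPOBOP pools and in neither vehicle pool of a comparison, have no test with 2 pools against 2. In males at 27 h, 4 of the 28 Gstm regions with a peak in the comparison were gained, where 2.22% of all such regions were gained. Region 8, chr3:107765422-107766417, held 0.874 and 1.23 in the TCPOBOP pools, from 26 and 60 tags. Region 13, chr3:107780802-107781110, held 0.874 and 1.12, from 26 and 55 tags, and region 14, chr3:107783013-107783242, held 0.807 and 0.716, from 24 and 35 tags. These 3 regions had no peak in any other list of the series. Region 21, chr3:107825631-107825950, held 1.45 and 1.49, from 43 and 73 tags, and also had a peak at 3 h in the first TCPOBOP pool of males, at 1.91, and of females, at 1.12. It had a peak in 0 of 8 vehicle lists. With all lists limited to the 29216 highest-ranked peaks, none of these 4 was gained, and regions 10, 11 and 25 were gained instead.

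In females at 27 h, 3 of 25 Gstm regions with a peak were gained, where 6.04% of all such regions were. Region 10, chr3:107771813-107772379, held 2.21 and 1.73 in the TCPOBOP pools, from 58 and 52 tags, the strongest of the gained Gstm peaks. At male 27 h it had a peak in 1 vehicle pool, at 0.588, and in both TCPOBOP pools, at 1.11 and 1.59, so its TCPOBOP pools were high in both sexes at this time. Region 22, chr3:107827942-107828388, held 1.53 and 1.53 in the female TCPOBOP pools and 0.961 in the second male 27 h TCPOBOP pool, the one that stood apart, with no peak elsewhere. Region 9, chr3:107767726-107768319, held 1.14 and 1.10, and outside this comparison had a peak in 2 vehicle pools, at 0.807 and 0.511, and in 1 TCPOBOP pool, at 0.908. With lists of equal length region 10 remained gained and regions 9 and 22 did not.

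At 3 h the 1 gained region in males was region 23, described above, of 22 Gstm regions with a peak, where 4.93% of all such regions were gained, and it was also gained with lists of equal length. In females at 3 h 0 of 18 were gained, where 4.05% of all were. No Gstm region was lost in any comparison, where 0.474% of all regions were lost in males and 1.01% in females at 3 h, and 2.31% and 1.26% at 27 h. A gained peak can have had signal below the calling threshold in the vehicle pools, and no value below it is in the lists.

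The peak caller sets each pileup against a local background, the tag density expected around the summit, for which the file headers give a range of 10000 bp. That background was recovered from the deposited pileup and fold enrichment, centred in the same way, and tested in the same fit, a readout added after the values of these regions had been seen. In females at 27 h it was higher with TCPOBOP at 7 of the 13 Gstm regions tested and lower at 0, where 8.15% and 8.01% of all regions were called higher and lower. Among males at 27 h it was higher at 3 of 19 and lower at 0, where 3.62% and 1.24% were. At 3 h it was called at 0 of 11 in males, where 0.834% of all regions were called higher, and at 0 of 10 in females, where 1.76% were, with 0.0698% and 0.175% of all called lower. By limma without adjustment 0 and 1 of these had p under 0.05, again with no share over all regions beside the counts.

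Among the 13 regions tested, the largest rise of local background in females at 27 h was again at region 11, from 0.166 and 0.197 tags per 1000000 with vehicle to 0.494 and 0.465 with TCPOBOP (log2 difference 1.41 ± 0.13, SE, limma adjusted p = 4.27e-06). Region 23 rose from 0.193 and 0.224 to 0.501 and 0.465 (log2 1.21 ± 0.13, limma adjusted p = 1.67e-05). Region 24 rose from 0.189 and 0.193 to 0.372 and 0.327 (log2 0.87 ± 0.15, limma adjusted p = 0.000604). In each of the 3 the groups were far apart, and the calls held without each pool in turn. Regions 7 and 15 rose by log2 0.66 and 0.53, and regions 20 and 26 by 0.35 and 0.40. At regions 15, 20 and 26 the summit signal had log2 differences of −0.10, 0.08 and −0.05 that did not pass, so the density around these 3 summits was higher with TCPOBOP where the summit itself was not called. The call at region 15 held without each pool in turn. That at region 20 ended with any 1 of the 4 pools left out (limma adjusted p 0.0653 to 0.252), that at region 7 without the first vehicle (0.0557) or second TCPOBOP pool (0.0682), and that at region 26 without the first vehicle (0.147), first TCPOBOP (0.0796) or second TCPOBOP pool (0.0803).

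Local background in males at 27 h rose at region 23, from 0.205 and 0.249 to 0.360 and 0.446 tags (log2 0.83 ± 0.13, SE, limma adjusted p = 0.000577). It rose at region 11 from 0.174 and 0.176 to 0.255 and 0.305 (log2 0.67 ± 0.13, limma adjusted p = 0.00346) and at region 12 from 0.167 and 0.159 to 0.233 and 0.283 (log2 0.65 ± 0.13, limma adjusted p = 0.00472). The groups did not overlap at any of the 3. Without the TCPOBOP pool that stood apart, none of them passed (log2 0.67, 0.54 and 0.51 for regions 23, 11 and 12, limma adjusted p 0.142 to 0.234). Without the first TCPOBOP pool only region 23 passed (limma adjusted p = 0.0487). The range of 10000 bp holds the tags of the peak itself and of its neighbours, so regions 11 and 12, and regions 23 and 24, share part of it.

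On fold enrichment, the deposited ratio of summit pileup to local background, no Gstm region was called in any comparison. No share of all regions called on this ratio is given beside that count. Over all settings used, the number of all regions called higher in females at 27 h ran from 40 to 2127. At female 27 h region 11 had a log2 difference of 0.33 ± 0.20 (SE, limma adjusted p = 0.678) and region 24 of 0.33 ± 0.19 (limma adjusted p = 0.644), while region 23 turned to −0.27 ± 0.18 (limma adjusted p = 0.710). At male 27 h region 12 had 0.32 ± 0.19 (limma adjusted p = 0.943). Summit and surrounding density thus rose together at regions 11, 23 and 24 in females, and the call at each summit was lost when the one was divided by the other. The part of the surrounding density in the summit signal was not tested, nor was whether the lost calls were particular to these regions.

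**Figure D4:**
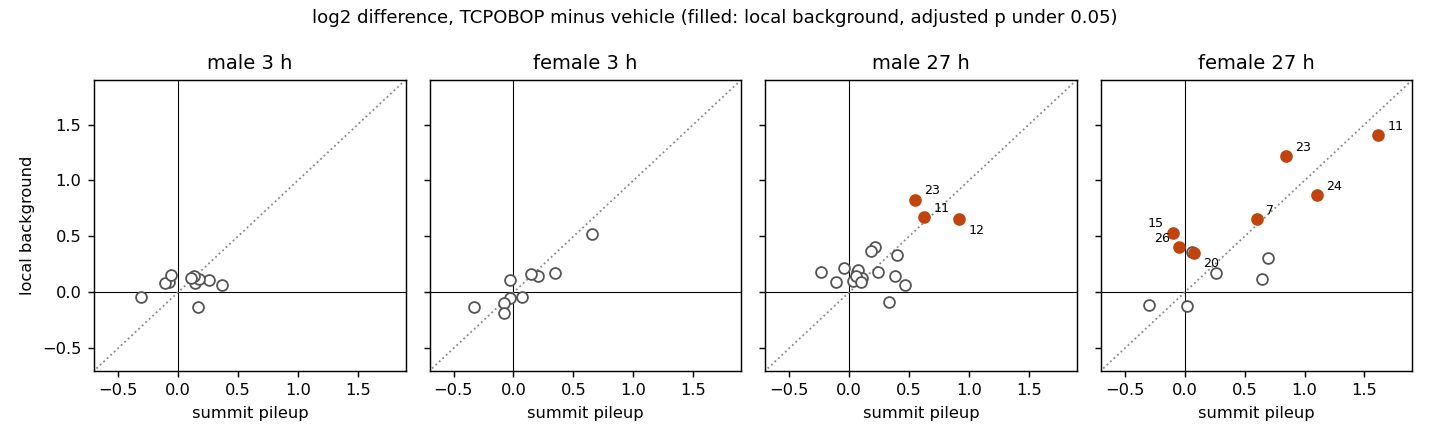
Log2 difference, TCPOBOP minus vehicle, of the local background (vertical) against that of the summit pileup (horizontal) for each Gstm region tested, by experiment, with the dotted line at equality and filled, numbered points where the local background passed. At female 27 h regions 11, 23 and 24 lie high on both axes, and regions 15, 20 and 26 are raised on the vertical axis alone.

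The TCPOBOP effect was also compared between experiments. For female minus male at 27 h, 0 of 13 Gstm regions tested were called, where 0.00826% of all regions were called higher. Region 11 had a difference of 0.99 ± 0.36 between its log2 effects (SE, limma adjusted p = 0.791), and region 24 had 0.92 ± 0.36 (limma adjusted p = 0.871). For 27 h minus 3 h in females, 0 of 9 were called on summit signal, where 0.11% of all were called higher and 0.0748% lower, and region 24 had a difference of 1.03 ± 0.37 (limma adjusted p = 0.267). Without adjustment limma gave p under 0.05 at 2 of the 13 and 2 of the 9, counts with no share over all regions beside them. On local background, 1 of those 9 was called, region 24, with a difference of 0.91 ± 0.21 (SE, limma adjusted p = 0.0304), where 1.48% of all regions were called higher and 0.953% lower. The call ended without the first 3 h vehicle pool (limma adjusted p = 0.1498), the second 3 h TCPOBOP pool (0.0780) or any 1 of the 27 h pools (0.0627 to 0.132), and with no centring (log2 difference 0.96, limma adjusted p = 0.138). The other differences had no call on local background. These were 0 of 13 for female minus male at 27 h, 0 of 9 for female minus male at 3 h and 0 of 11 for 27 h minus 3 h in males. No share over all regions is given beside these counts. Female minus male at 3 h and 27 h minus 3 h in males had 0 of 9 and 0 of 11 called on summit signal, where 0.005% and 0.0134% of all regions were called higher. On summit signal 0 of each had p under 0.05 by limma without adjustment. That the calls at regions 11, 23 and 24 passed in females and not in males is therefore not shown to be a difference between the sexes.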

How the data were processed

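DNase-seq peak lists of 16 pools of mouse liver were used. Per the labels' protocols, fragments released by DNase I were selected to 125 to 400 bp, and only the first read of the 27 h libraries was used. The submitters' processing notes name Bowtie and the build mm9, and peaks were called in each pool alone with MACS 2.1.0.20150731 at a q-value of 0.05, per the file headers. Each list lacks 458 to 552 of its peak numbers, so some peaks had been removed, by a filter that the sources used here do not describe. Pileup, as deposited, is a signal in tags that the authors did not scale to depth. Fold enrichment, as deposited, is the ratio of pileup to local background, and the authors' lists also hold −log10 of the p-value and q-value. One female 27 h TCPOBOP list has a heading with another experiment's code, and it was assigned by the code in its command line and peak names.

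Peaks overlapping by at least 1 bp were merged (Python 3.11.15, numpy 2.4.6, pandas 2.3.3). Log2 of the highest pileup per 1000000 tags was centred in each library and tested with limma 3.58.1 in R 4.3.3, as 8 group means over all 16 pools with a mean trend, in regions with a peak in all pools compared. Benjamini-Hochberg adjustment ran over all regions tested, and calls needed adjusted p under 0.05. No share over all regions was taken for counts of p under 0.05 without adjustment. Local background was (pileup + 1)/fold − 1. Its lowest value in each list equalled the genome-wide tag density, as 7.90 to 16.7% of peaks had it. The fit was tested on simulated data. The window, the regions described and the readouts were chosen with earlier results of these data known. Pool values were printed for called and gained regions and for the 5 strongest with a peak in all lists; region 7 is among these. The p-values rest on the spread between pools within groups, estimated over all 8 groups and moderated over regions. Whether pools share mice is not stated, and pools that did would not be independent.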

Additional observations from a re-analysis of the deposited data

Results flagged for a closer look

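Region 29, one of the strongest sites of the Gstm cluster, had opposite directions in the sexes at 27 h: both TCPOBOP pools were above both vehicle pools in males (7.73 and 7.81 against 7.16 and 7.35) and below them in females (5.72 and 6.60 against 8.53 and 6.68). The female minus male difference of the log2 effects was −0.40, and it was not called (limma adjusted p = 0.9996). Of all regions tested at 27 h, both TCPOBOP pools were above both vehicle pools at 20.4% in males and below them at 27.9% in females. The sexes were separate experiments, and cannot be told apart from them.

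The local background at region 24 was flagged because its TCPOBOP effect differed between 27 h and 3 h in females, by log2 0.91 (limma adjusted p = 0.0304). Its values with vehicle and TCPOBOP were 0.187 and 0.151 against 0.192 and 0.140 tags per 1000000 at 3 h, and 0.189 and 0.193 against 0.372 and 0.327 at 27 h. The times were separate experiments, and cannot be told apart from them.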

How the results depend on the processing

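Regions 11, 23 and 24 in females at 27 h stayed called with no centring, with centring on the 5000 strongest regions, with the 4 pools alone and with no mean trend. At −log10 q of at least 5, regions 11 and 24 stayed called and region 23 had no peak in the second vehicle pool, so it was not tested. The count of Gstm regions called higher there, 3, fell to 1 when only regions with a peak in all 16 lists were tested, since region 24 alone of the 3 has one, was 5 with absent peaks set at the list's lowest pileup (regions 10, 11, 12, 22 and 24, so region 23 was lost), and was 0 on fold enrichment. In males at 27 h the count of 1 fell to 0 with centring on the strongest regions, no mean trend, a peak in all 16 lists or fold enrichment, and was 5 with absent peaks at the lowest pileup (the gained regions 8, 13, 14 and 21, and region 10), which made it 1 in males at 3 h (region 12). At the gained regions (8, 13, 14 and 21 in males, 10 and 22 in females) both vehicle values were then this fill-in. Their differences depend on it and are no measured effect. At region 10 in males at 27 h, and at region 12 in females at 27 h and males at 3 h, it stood for 1 vehicle pool. The cause of the other changes in count was not tested. No share of all regions is given beside these counts by setting, so they do not set the Gstm regions apart. Over the settings, all regions called higher on summit signal at 27 h numbered 59 to 993 in males and 40 to 2127 in females. Counts without 1 pool each ran from 0 to 1 in males at 3 h, 0 to 0 in males at 27 h and 1 to 3 in females at 27 h. For local background they ran from 0 to 1 in females at 3 h, 0 to 4 in males at 27 h and 4 to 7 in females at 27 h. The male 27 h count of local background, 3, was 0 with no centring or a peak in all 16 lists and 6 with the 4 pools alone.

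Gained Gstm peaks numbered 3 in males and 1 in females at 3 h at −log10 q of at least 5, 1 in females at 3 h with an overlap of 50%, and 1 in females at 27 h with lists of equal length, an alternative chosen after seeing the data. Without 1 pool each, gained peaks numbered 1 to 2 (males) and 0 to 3 (females) at 3 h and 4 to 6 in females at 27 h, and lost peaks 0 to 3 and 0 to 2 at 3 h and 0 to 1 in males at 27 h. Over the settings, gained peaks among all regions at 3 h numbered 846 to 7018 in males and 898 to 3762 in females. At 27 h they numbered 979 to 4943 in males and 1538 to 5913 in females. Fold enrichment reversed region 23 (log2 −0.21) and region 24 (−0.15) in males at 27 h, region 23 in females at 27 h (−0.27) and its female minus male difference at 27 h (−0.063). No centring reversed region 24 in males at 3 h (0.13) and its female minus male difference at 3 h (−0.054). Without 1 pool each, region 24 ran from −0.27 to 0.13 in males and −0.43 to 0.57 in females at 3 h.

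Pool numbers did not pair the samples (correlation of pool 1 minus pool 2 between treatments −0.04 to 0.03 over 18443 regions). With a replicate block, male 27 h calls fell from 1 to 0 (region 12, limma adjusted p = 0.0509), female 27 h calls stayed at 3, and local background calls in males at 27 h rose from 3 to 5. Where 1 pool of a group was left, it was assumed to vary like the other groups. Over all regions, calls moved with the settings as well, higher regions in females at 27 h from 40 to 2127. Depth limits which regions have a peak in every pool, and so which could be tested.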
